A study of Rattus norvegicus with 24 samples.

Results

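The cytosolic ribosomal proteins are the protein components of the ribosome that translates nuclear-encoded mRNA. Their genes were taken here as every gene whose rat symbol is Rpl or Rps with a number (with or without a, x or l), Rplp0, Rplp1, Rplp2 or Rpsa, and which had 10 or more estimated counts in at least 6 animals. By this rule 78 of the 17334 genes in the files were members, out of 84 whose symbols matched. They comprised 30 proteins of the small subunit, 41 of the large subunit, the 3 proteins of the large subunit's stalk and 4 paralogs or copies (Rpl22l1, Rps27l, Rpl28l1 and Rpl37l1).

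Each ribosome holds a single copy of nearly every one of these proteins, except for the stalk, which carries several copies of Rplp1 and Rplp2 on Rplp0. The small subunit reads the mRNA, the large subunit forms the peptide bond, and the stalk recruits the GTPases that drive each step. The mRNAs of this family are among the most abundant of most tissues, and many begin with a terminal oligopyrimidine (TOP) tract, a C followed by a run of C and T bases, through which their translation is coupled to mTOR. In polycystic kidney the mTOR pathway has been studied as a driver of cyst growth.

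The animals were male PKD/Mhm (Cy/+) rats, heterozygous for a missense mutation of Anks6 that gives a cystic kidney, and their whole kidneys were collected at 8 months of age. The labels give this genotype for all 4 groups, and no wild-type group was analysed here. Ctrl (animals 1, 12, 18, 22, 23 and 24) was untreated. For 6 months, CoCM (animals 26, 27, 34, 35, 39 and 40) received each month the supernatant of a co-culture of human skin-derived ABCB5+ cells with stimulated macrophages derived from the THP-1 line. The ABCB5+ cells themselves were injected intraperitoneally in the i.p. ABCB5+ group (animals 29, 30, 31, 32, 38 and 41) and intravenously in the i.v. ABCB5+ group (animals 28, 33, 36, 37, 42 and 43), so every group held 6 rats. No group injected with vehicle was analysed here, so injection and treatment cannot be told apart, and the sources differ on the route of the supernatant. The untreated rats carry the lowest animal numbers, so the order of the animals and the treatment cannot be told apart either.

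Between 9304630 and 14125457 counts were estimated per library. The markers of kidney were present, with a summed level of at least 3989 CPM for proximal tubule, 2616 CPM for thick ascending limb and 433 CPM for podocyte in every library. Animals 36 and 37 (i.v. ABCB5+), 38 (i.p. ABCB5+) and 39 (CoCM) stood apart in earlier results of these data, and their level of Spp1 (osteopontin, made by injured tubules) was 333 to 546 CPM, against 6609 to 13170 CPM elsewhere (CPM are counts scaled to the size of the library). The summed level of 11 injured tubule markers was 816 to 1246 CPM in these 4 animals and 8832 to 17176 CPM in the other 20, so whether their kidneys were cystic as labelled was not settled here. The summed level of 10 lymphocyte markers was 12.5 to 29.5 CPM in these 4 animals and 134 to 373 CPM in the other 20, and that of 9 macrophage markers was 150 to 446 CPM against 1146 to 3097 CPM. Fibroblast markers were at 158 to 472 CPM against 769 to 3415 CPM. Thick ascending limb markers were at 11646 to 14802 CPM against 2616 to 10084 CPM. Proximal tubule markers were at 12778 to 19470 CPM and overlapped the 3989 to 13445 CPM of the other 20. The part of cell composition in the results below was not tested, and in bulk tissue fewer cells of a type and less RNA per cell cannot be told apart. The contrasts are therefore given with and without these 4 animals.

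The transcription starts of several members show the feature for which the family is known. RefSeq promoters (GRCr8 build) were found for 61 of the 78 members. Within 5 bases either side of the annotated start and on the gene's own strand, 37 of the 61 members (60.7%) held a C followed by at least 4 bases that were each C or T, against 17% of 27457 promoters in the table. CCGGAAG, the core of an ETS factor motif, was found on either strand of the 300 base window in 31.1% of members and 9.22% of all promoters, and TATAAA in 11.5% and 14.3%. The reverse complement of CCGGAAG itself begins with such a pyrimidine run, so a copy at the start can count for both. The 8 windows below hold 15 bases before and 15 bases from the annotated start, and capitals mark the pyrimidine run from its first C inside the searched bases. They show the most abundant members (Rpl41 and Rplp1), the parent genes beside their paralogs (Rpl22 with Rpl22l1, Rps27 with Rps27l, and Rpl28) and Rps10.
Rplp1: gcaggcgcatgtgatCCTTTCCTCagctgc
Rps10: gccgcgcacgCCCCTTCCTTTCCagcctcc
Rpl28: ccccgcccctagtgtCTTTCTTTCCgtctc
Rpl22: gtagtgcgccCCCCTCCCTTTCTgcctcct
Rpl22l1: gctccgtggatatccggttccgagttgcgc
Rps27: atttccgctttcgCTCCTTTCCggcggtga
Rps27l: gtttattcatttgtcattatttgtggtgtc
Rpl41: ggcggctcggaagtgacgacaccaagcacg

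On GRCr8 these windows lay at chr8:71290858-71290887 (minus strand, Rplp1), chr20:5700730-5700759 (minus, Rps10), chr1:78083518-78083547 (minus, Rpl28) and chr5:168117946-168117975 (plus, Rpl22). Rpl22l1 lay at chr2:113683181-113683210 (plus), Rps27 at chr2:177964592-177964621 (minus), Rps27l at chr8:76443643-76443672 (plus) and Rpl41 at chr7:1563483-1563512 (minus). The tract was present at the starts of Rpl22 and Rps27, and these letters were not in the window of the paralogs Rpl22l1 and Rps27l nor in that of Rpl41 as annotated. The 37 members with the tract had a median level of 1705 TPM, a level scaled for transcript length, and the 24 members without it had 1204 TPM. The lowest of these 24 were the paralogs Rps27l (109 TPM) and Rpl22l1 (150 TPM), and Rpl7a (117 TPM) and Rpl38 (199 TPM). Rpl7a and Rpl38 had fractional counts in every library, as did some members with the tract, such as Rpl13 and Rps10. Whether the tract goes with the level was not tested.

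The family was abundant. The median member stood at 1597 TPM, with quartiles of 899 and 2131 TPM. Rpl41, a short basic peptide of the large subunit, had the highest median at 5175 TPM, with 3450 TPM in the lowest and 6900 TPM in the highest animal. It was followed by Rplp1 of the stalk at 4823 TPM and by Rps29, a zinc finger protein of the small subunit, at 4211 TPM. The median was 1776 TPM over the 30 small subunit proteins and 1409 TPM over the 41 large subunit proteins.

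Among proteins with known roles beside or within translation, Rpsa, which is also known as a laminin receptor, stood at 2360 TPM and Rps2, near the mRNA entry, at 2230 TPM. Rps3, which lines the mRNA entry channel, was at 901 TPM and Rps6, the substrate of the S6 kinases, at 1069 TPM. Rps26, which contacts the mRNA around the start codon, was at 2787 TPM, and Rps27a, made as a fusion with ubiquitin, at 755 TPM. The estimated mRNA levels of proteins that are used in equal numbers were thus unequal, with a limit for shared reads given below. Rpl5 (1290 TPM) and Rpl11 (980 TPM), which bind Mdm2 when they are not in ribosomes, lay close to each other. Rpl10, which joins the large subunit last, was at 1765 TPM, Rpl3 of the catalytic centre at 983 TPM and Rpl39 of the exit tunnel at 508 TPM.

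The lowest medians were 5.27 TPM for Rpl8, 86.9 TPM for Rpl37l1 and 109 TPM for Rps27l. Rpl8 is an invariant protein of the large subunit, and its counts were fractional in all but 1 library. The pseudo-aligner of the authors splits a read among the transcripts it matches, and estimated counts were exactly whole as deposited, with no tolerance, in all 24 animals for 53 members, in some animals for 14 and in none for 11. The 11 were Rpl7a, Rpl9, Rpl12, Rpl13, Rpl27a, Rpl37a, Rpl37l1, Rpl38, Rps10, Rps13 and Rps20, all named here after their values were seen. Levels of these are uncertain where a near-identical copy shares their reads. The same limit holds in part for members whole in some animals, such as Rps27a (2 of 24), Rpl39 (7) and Rps6 (12). Of the core proteins, Rps9 and Rpl37 were not among the genes analysed here, and Rpl10a had 10 or more counts in 2 of 24 libraries only.

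The members took 4.10% ± 1.004 (SD, n = 6) of all counts in CoCM, 3.85% ± 0.720 in Ctrl, and 3.67% ± 0.537 and 3.29% ± 0.850 in i.p. ABCB5+ and i.v. ABCB5+. In Ctrl the share was 4.78% in animal 1, 4.45% in animal 12, 4.12% in animal 18, 3.49% in animal 22, 3.38% in animal 23 and 2.87% in animal 24. In CoCM it was 5.35% in animal 26, 4.50% in animal 27, 4.15% in animal 34, 3.60% in animal 35, 2.41% in animal 39 and 4.57% in animal 40. The untreated animals alone thus ranged from 2.87% to 4.78%.

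In i.p. ABCB5+ the share was 3.65% in animal 29, 4.02% in animal 30, 3.69% in animal 31, 3.89% in animal 32, 2.63% in animal 38 and 4.12% in animal 41. In i.v. ABCB5+ it was 4.55% in animal 28, 3.71% in animal 33, 2.19% in animal 36, 2.54% in animal 37, 3.52% in animal 42 and 3.22% in animal 43. The 4 lowest shares of the 24 were those of animals 36 to 39, and all groups overlapped. Without these animals the means were 4.44% ± 0.640 (n = 5) in CoCM, 3.87% ± 0.203 (n = 5) in i.p. ABCB5+ and 3.75% ± 0.573 (n = 4) in i.v. ABCB5+. With or without these animals, each treated mean differed from that of Ctrl by less than the SD of Ctrl.

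**Figure D1:**
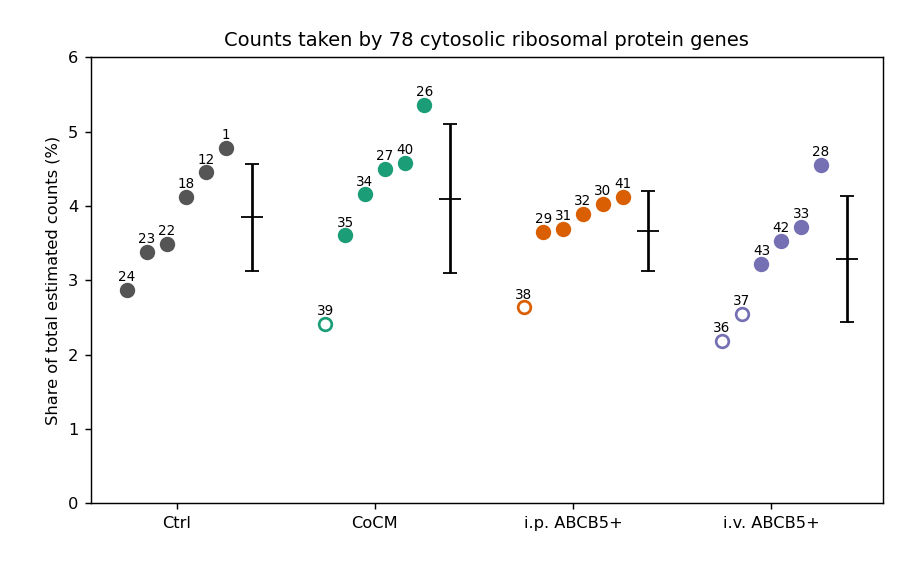
Share of the total estimated counts (y axis, percent) taken by the 78 genes in each rat, by group, with animal numbers above the points and the group mean ± SD (n = 6) as bars; open circles are animals 36 to 39. The groups overlapped, from 2.87% to 4.78% in Ctrl and from 2.19% to 5.35% over the treated animals.

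Much of this variation was shared by the whole family. Taking for each animal the median over members of the log2 deviation from each gene's own mean gave a family level, which was 0.39 in Ctrl animal 1, −0.31 in Ctrl animal 24, 0.54 in CoCM animal 26, −0.42 in CoCM animal 39 and −0.51 in i.v. ABCB5+ animal 36. All 78 members were above their own mean in CoCM animal 26. In i.v. ABCB5+ animal 43 the only member above its mean was Rpl37l1, and in animal 36 the members above their means were Rpl13, Rpl28l1, Rpl37l1 and Rps13. The small subunit and large subunit medians lay close to each other, for example at 0.55 and 0.53 in animal 26 and at −0.57 and −0.50 in animal 36. The stalk had 0.56 and −0.47 in the same animals. In CoCM animal 34 the 3 classes were further apart, at 0.29, 0.20 and 0.02.

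The median within-group SD of log2 CPM was 0.286 over the members and 0.2996 over all 12778 genes tested. After each animal's family level was subtracted, the SD of the median member was 0.0898, and it was lower than before for 73 of the 78 members. Part of this fall is built in, because the members themselves define the family level. Among the 53 members with whole counts, the median SD went from 0.272 to 0.0892, and the largest remaining SD was 0.263 for Rpl22l1. Rpl7a, Rpl38 and Rpl13 had some of the largest spreads of the family, with SDs of 1.05, 0.777 and 0.500, and each had fractional counts in every library. Apart from these and Rpl8 and Rpl37l1, the largest spread was that of Rps19, with an SD of 0.413 and whole counts in 11 of 24 libraries. Rps19 is a factor in maturation of the small subunit's RNA that is mutated in Diamond-Blackfan anaemia. Rpl18, Rpsa and Rpl7 had the smallest SDs, at 0.185, 0.197 and 0.201.

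**Figure D2:**
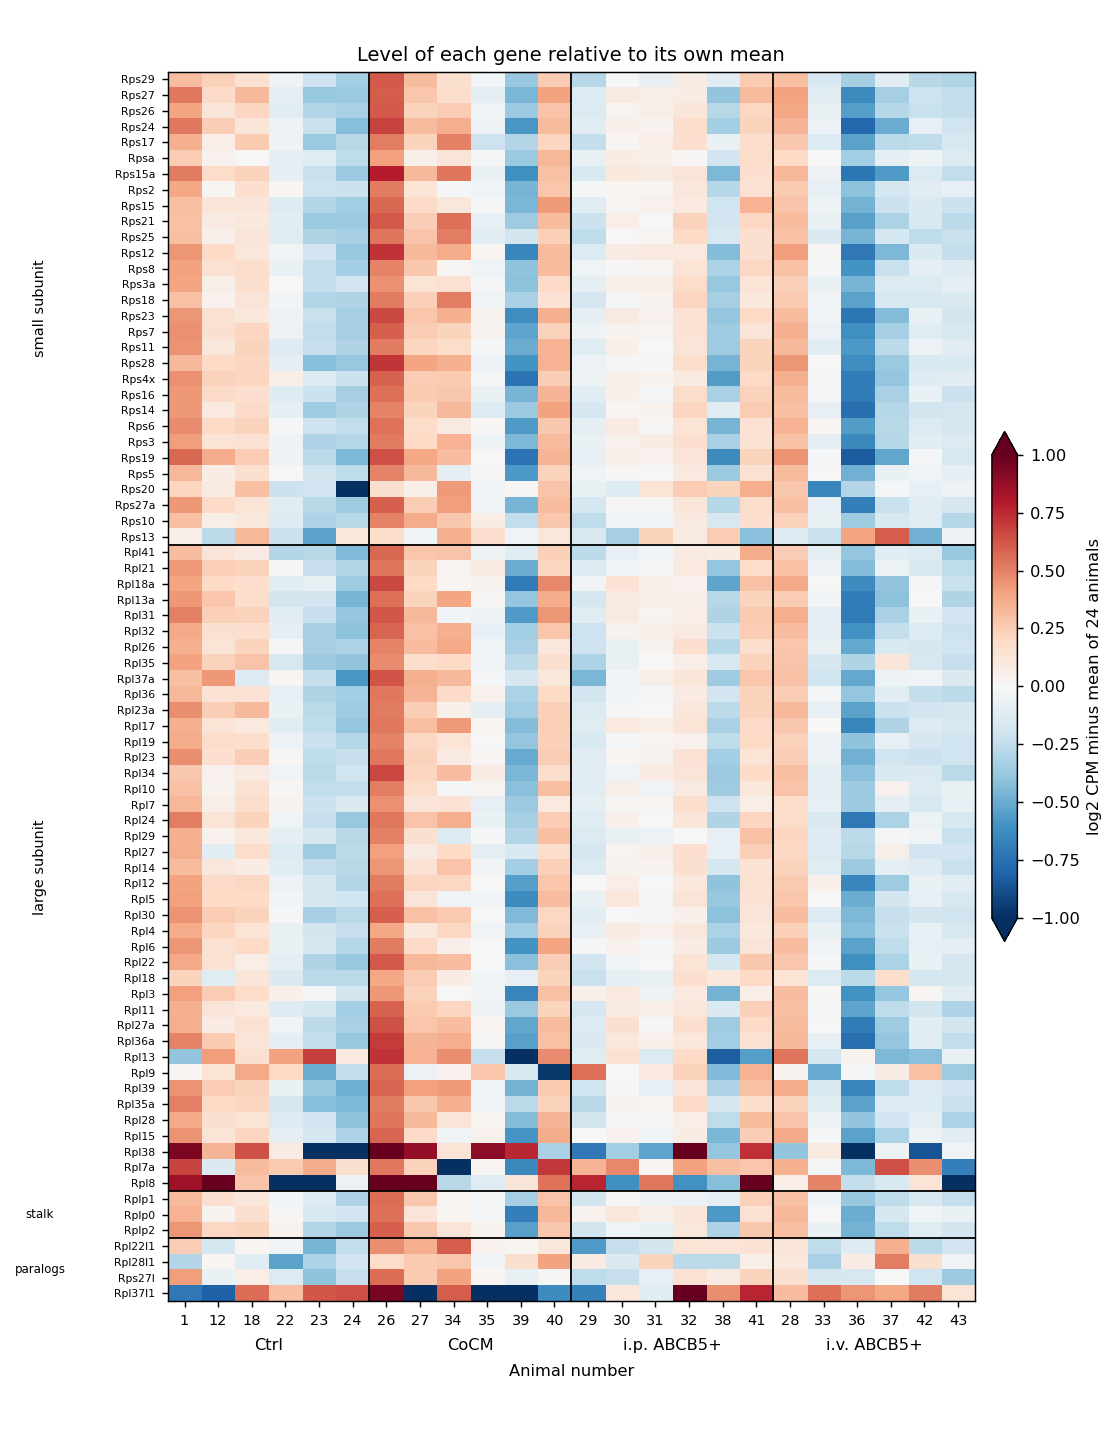
Log2 CPM of each of the 78 genes (rows, by role and falling median TPM) in each rat (columns, animal numbers by group), as the difference from that gene's mean over the 24 rats; the colour scale stops at 1 in either direction. Whole columns share a colour, red for animal 26 and blue for animal 36, and Rpl8, Rpl7a, Rpl38, Rpl13 and Rpl37l1 break the columns.

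**Figure D3:**
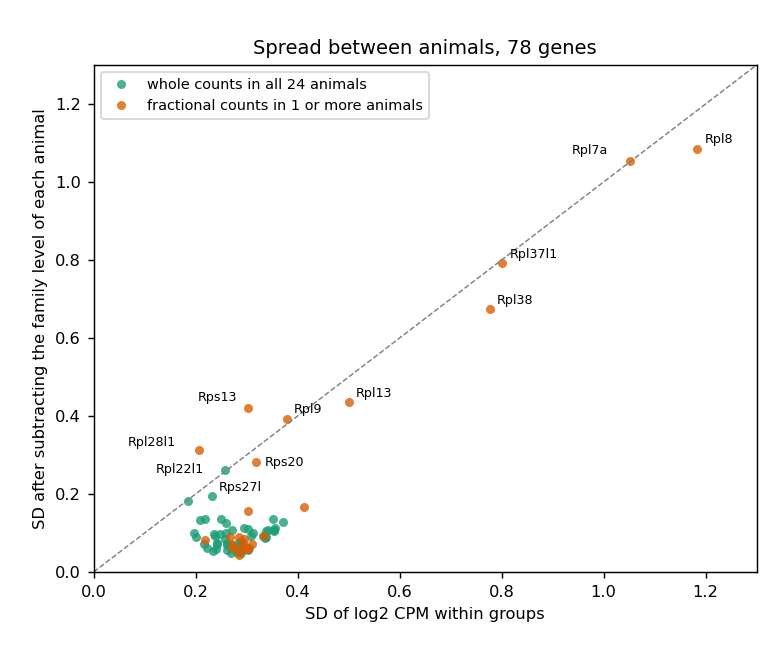
SD of log2 CPM within groups (x axis) of each gene against its SD after the family level of each animal was subtracted (y axis), with equal values on the dashed line. Of the 78 genes, 73 lie below the line, and those with fractional counts such as Rpl8 and Rpl7a keep the largest SDs.

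In animals 36 to 39, 62 of the 78 members were below their own mean in all 4 animals, and no member was above it in all 4. Rpl3 was at 489 CPM in animal 39, 556 CPM in animal 38, 509 CPM in animal 36 and 590 CPM in animal 37, below the 681 to 1026 CPM of Ctrl. Rplp0, the base of the stalk, was at 891 CPM in animal 39, 961 in animal 38, 1013 in animal 36 and 1266 in animal 37, against 1257 to 1822 CPM in Ctrl. All 4 animals were thus below the untreated range for Rpl3, and animal 37 was within it for Rplp0. For Rpl41 all 4 were within the Ctrl range of 700 to 1180 CPM. It was at 875 CPM in animal 39, 998 in animal 38, 727 in animal 36 and 882 in animal 37.

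Paralogs and some core proteins were above their own means in part of these animals. Rpl28l1, Rpl37l1 and the core protein Rps13 were so in 3 of the 4, and Rpl18, Rpl7a and Rps20 in 2. Rpl22l1, an RNA-binding protein that can take the place of Rpl22, was above its own mean in 3 of these 4 animals, with 43.1 CPM in animal 39, 46.6 in animal 38, 38.9 in animal 36 and 54.5 in animal 37. Rpl22l1 therefore amounted to 19.2%, 17.6%, 19.9% and 22.5% of the TPM of Rpl22 in animals 39, 38, 36 and 37, and to 10.9% to 17.6% in the other 20 animals. Rps27l, a p53-responsive paralog, amounted to 3.63%, 3.88%, 3.91% and 3.43% of Rps27 in these animals and to 2.13% to 3.31% in the others. Both ratios were highest in the 4 animals, by a small margin for Rpl22l1 in animal 38, although Rps27l itself was above its own mean in 1 of them only. Rpl28l1 amounted to 49.7%, 32.8%, 45.4% and 55.6% of Rpl28 in animals 39, 38, 36 and 37 and to 20.6% to 40.3% in the others, so animal 38 lay within the range of the others for this ratio. These ratios were chosen after their values were seen, and they have no test.

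The genes of the mitochondrial ribosome, which translates the mRNAs of the mitochondrial genome, did not follow the cytosolic family in these animals. The median deviation of 70 mitochondrial ribosomal protein genes was 0.38 in animal 39, 0.46 in animal 38, 0.29 in animal 36 and 0.55 in animal 37, the 4 highest values, while the cytosolic family was at −0.42, −0.31, −0.51 and −0.22. In CoCM animal 26 both were above 0, at 0.13 and 0.54. Among the remaining animals the signs agreed in some and differed in others. They differed, for example, in Ctrl animal 12 (mitochondrial −0.32, cytosolic 0.15) and CoCM animal 40 (−0.14 and 0.27). The cytosolic members are short, all 78 being shorter than the median gene, and a trend of level with length differed between libraries. At the members' lengths this trend amounted to 0.20 in animal 26, 0.25 in animal 39, 0.30 in animal 38 and 0.05 in animal 36 (log2). It was 0.19 in animal 37 and −0.21 in Ctrl animal 23. Trend and family level differed in sign in animals 36 to 39, and also in Ctrl animal 12 (−0.09 and 0.15). They had the same sign in most other animals, for example CoCM animal 27 (0.18 and 0.25) and i.v. ABCB5+ animal 43 (−0.13 and −0.18). The part of the length trend in the family level was not tested.

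**Figure D4:**
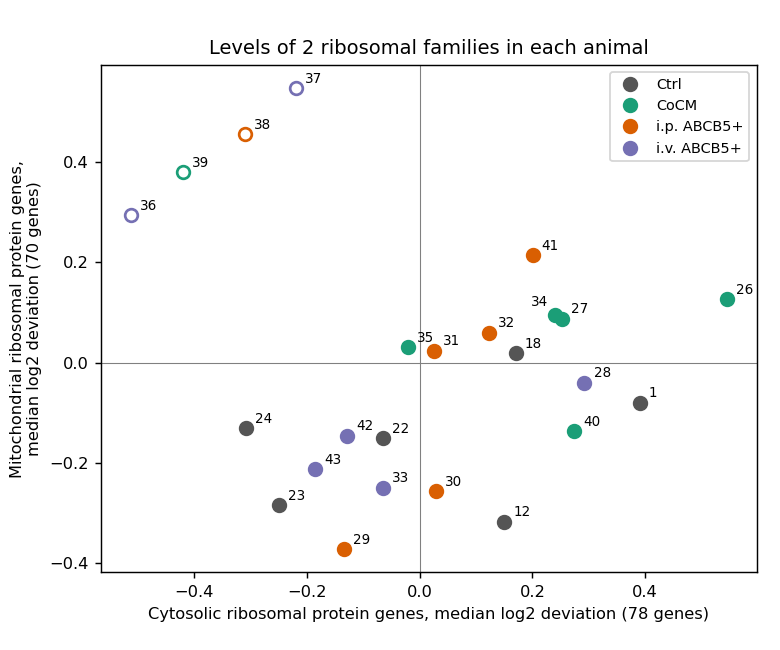
Median log2 deviation from each gene's mean in each rat for the 78 cytosolic (x axis) and 70 mitochondrial (y axis) ribosomal protein genes; numbers are animals, colours are groups and open circles are animals 36 to 39. The open circles lie at the upper left, with mitochondrial medians of 0.29 to 0.55 and cytosolic medians of −0.51 to −0.22.

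CoCM was compared with Ctrl to ask how the medium affects the family in the cystic kidney. The members tended to higher means in CoCM without any passing the test. Of the 78 members, 73 had a log2 fold change above 0, beside 51.4% of all genes tested, with a median of 0.15 against 0.01 for all genes. All 30 small subunit proteins were on this side (median 0.16), as were 37 of the 41 large subunit proteins (0.13) and all 3 stalk proteins (0.10). No member passed an adjusted p of 0.05 in edgeR, where 0.00783% of all genes did, and none did with DESeq2 or limma voom. At an unadjusted p under 0.05, 2 members were higher in edgeR, beside 5.96% of all genes higher, and DESeq2 gave 2 (beside 5.81% of all genes higher) and limma voom 12 higher (beside 10.5%) and 1 lower. Over both directions, 11.9% of genes had such a p in edgeR.

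The 2 members with the smallest p-values, Rpl28l1 and Rpl22l1, were both among the paralogs or copies. Rpl28l1, a copy of Rpl28 that the annotation lists as a pseudogene, was at 12.7 CPM in animal 26, 13.3 in 27, 13.5 in 34, 10.9 in 35, 12.4 in 39 and 14.7 in 40 of CoCM. In Ctrl it was at 9.03 CPM in animal 1, 11.3 in 12, 10.2 in 18, 7.61 in 22, 8.88 in 23 and 9.71 in 24. Only animal 12 of Ctrl lay above the lowest animal of CoCM. The log2 fold change was 0.45 ± 0.13 (SE), with an adjusted p of 0.237 in edgeR and an exact permutation p of 0.00433 (two-sided, smallest possible 0.00216), unadjusted for the members examined. Rpl28l1 had fractional counts in 5 libraries and about 10 CPM, so reads of Rpl28 could contribute.

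Rpl22l1 was at 58.7 CPM in animal 26, 54.8 in 27, 64.9 in 34, 43.7 in 35, 43.1 in 39 and 45.8 in 40 of CoCM. Ctrl held 50.5 CPM in animal 1, 37.6 in 12, 43.1 in 18, 41.2 in 22, 30.7 in 23 and 35.8 in 24. All 6 CoCM animals were above the Ctrl mean, and the ranges overlapped. Its log2 fold change was 0.38 ± 0.14 (edgeR adjusted p = 0.360, exact permutation p = 0.0260). Its parent gene Rpl22 had 0.22 ± 0.16, Rps27l 0.25 and Rps27 0.12 ± 0.19.

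Members fixed for their known roles included several near 0. Rps6 was at 409.7 to 671 CPM (median 517) in Ctrl and 327 to 706 CPM (median 533) in CoCM, a log2 fold change of 0.03 ± 0.17. Rpl5 had 0.01 ± 0.16, Rpl3 −0.04 ± 0.17 and Rplp0 0.06 ± 0.17, and none was beyond its error. Without animals 36 to 39 the median was 0.23, and 18 members were higher at an unadjusted p under 0.05, beside 7.22% of all genes higher. Among them were Rps10 (0.32 ± 0.11), Rps21 (0.38 ± 0.14), Rps25 (0.33 ± 0.14), Rpl22 (0.31 ± 0.13) and Rpl41 (0.33 ± 0.15), and their adjusted p-values in edgeR were 0.231 to 0.284. With the length trend removed, the median was −0.03 and no member had an unadjusted p under 0.05.

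I.p. ABCB5+ was compared with Ctrl to ask what cells given into the peritoneum did, and the family lay close to Ctrl. The median log2 fold change was −0.04, with 26 of 78 members above 0 beside 51% of all genes. No member passed the adjusted test in edgeR (0% of genes did), DESeq2 or limma voom, and none had an unadjusted p under 0.05 in edgeR or DESeq2, where 1.77% of genes did in edgeR and 2.17% in DESeq2, against 1 member in limma voom, where 9.72% did. Rps6 was at 350 to 537 CPM (median 499.9), Rpl41 at 795 to 1230 CPM (median 966) and Rplp0 at 961 to 1592 CPM (median 1517), all overlapping Ctrl. Their log2 fold changes were −0.11 ± 0.17, 0.10 ± 0.15 and −0.04 ± 0.17. The direction of the median turned to 0.02 without animals 36 to 39, to 0.02 without animal 38 alone and to 0.05 without Ctrl animal 1.

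I.v. ABCB5+ was compared with Ctrl in the same way, for cells given into a vein. Here 74 of the 78 members were below 0, with a median of −0.15, while 52.6% of all genes were above 0. All 41 large subunit proteins and all 3 stalk proteins were below 0, and so were 29 of the 30 small subunit proteins. None passed the adjusted test in edgeR (0% of genes), DESeq2 or limma voom. The single member with an unadjusted p under 0.05 (edgeR 1, DESeq2 1, limma voom 0, beside 5.78%, 7.58% and 6.07% of genes) was Rpl28l1, which was higher. It was at 8.84 to 15.9 CPM (median 11.9) against 7.61 to 11.3 CPM in Ctrl, a log2 fold change of 0.34 ± 0.13 with an adjusted p of 0.673 in edgeR.

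Rps27 had −0.23 ± 0.19, Rps4x, the X-linked small subunit protein, −0.25 ± 0.19 and Rps19 −0.24 ± 0.22, each little more than its error. Rpl3 had −0.23 ± 0.17 and Rpl13a, which silences certain inflammatory mRNAs when released from the ribosome, −0.20 ± 0.17. Without animals 36 to 39 the median was −0.04, with 12 members above 0 and no unadjusted p under 0.05 (beside 1.23% of genes). Without i.v. ABCB5+ animal 28, which had the highest family level of its group (0.29), the median was −0.26.

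CoCM and i.v. ABCB5+ lay at opposite ends, and they were compared to set the secreted products against the cells. The comparisons with Ctrl share its animals, so this contrast was fitted directly. The median log2 fold change was 0.30, and 76 of 78 members were higher in CoCM, beside 47.9% of all genes. The exceptions were Rpl37l1 and Rpl7a, both with fractional counts in every library. No member passed an adjusted p of 0.05 in edgeR (0% of genes), DESeq2 or limma voom, the smallest adjusted p in edgeR being 0.698. At an unadjusted p under 0.05, 23 members were higher and none lower, comprising 9 small subunit proteins, 12 large subunit proteins, Rpl22l1 and Rps27l, beside 2.82% of all genes higher. Over both directions 6.84% of genes had such a p. DESeq2 gave 22 members, all higher (beside 3.07% of all genes higher), and limma voom 47 higher (beside 7.76%) and 1 lower. Because the members vary together, these are not separate observations.

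Rps10, which sits near the mRNA entry and is mutated in some cases of Diamond-Blackfan anaemia, had the smallest p of the contrast. It was at 131 CPM (lowest), 188 (median) and 219.6 (highest) in CoCM and at 122, 142 and 183 CPM in i.v. ABCB5+. The groups overlapped, and 5 of 6 CoCM animals were above the i.v. ABCB5+ mean. The log2 fold change was 0.34 ± 0.12, with p = 0.0122 and an adjusted p of 0.698 in edgeR and an exact permutation p of 0.0390.

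Rps25, which is needed for initiation at internal sites of some viral mRNAs, was at 346 to 569.9 CPM (median 471) in CoCM and 285 to 480 CPM (median 342) in i.v. ABCB5+, a log2 fold change of 0.38 ± 0.14. Rps21 followed at 185 to 362 CPM (median 287) against 162 to 293 CPM (median 205), with 0.40 ± 0.16. Rps27l was at 40.9 to 63.1 CPM (median 47.5) against 33.3 to 47.9 CPM (median 38.3), with 0.33 ± 0.13, and all 6 CoCM animals were above the mean of i.v. ABCB5+. Rpl38, which has been linked to translation of Hox mRNAs, had the largest difference of the contrast, 1.05 ± 0.42, from 14.07 to 42.9 CPM against 6.93 to 18.8 CPM. Its counts were fractional in every library, and its SD within groups was the largest but for Rpl7a, Rpl8 and Rpl37l1.

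Among the anchors Rpl41 was at 875 to 1414 CPM (median 1135) in CoCM and 727 to 1127 CPM (median 873) in i.v. ABCB5+, with 0.35 ± 0.15. Rpl11 had 0.32 ± 0.15 and Rpl13a 0.39 ± 0.17, whereas Rpl5 had 0.18 ± 0.16, Rpl3 0.18 ± 0.17 and Rplp0 0.16 ± 0.17. Proteins of both subunits were thus among those with an unadjusted p under 0.05. The 37 members with the oligopyrimidine tract and the 24 without it had the same median, 0.31, in this contrast. Among the 53 members with whole counts, all were higher in CoCM, with 18 at an unadjusted p under 0.05 and a median of 0.30.

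Without animals 36 to 39 the median was 0.28 and 17 members were higher at an unadjusted p under 0.05 (beside 3.77% of genes higher). Single animals decided the number: it was 3 without CoCM animal 26 (beside 3.71% of genes in either direction), 4 without i.v. ABCB5+ animal 36 (4.08%), 52 without i.v. ABCB5+ animal 28 (12.1%) and 61 without CoCM animal 39 (13.6%). With the length trend removed it was 1 (6.1%).

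The remaining contrasts come from the same fit, so the fold changes of each gene follow from those above and are not separate results. CoCM was above i.p. ABCB5+ with a median of 0.17 (75 of 78 members above 0, beside 50.6% of genes), and i.p. ABCB5+ above i.v. ABCB5+ with 0.11 (73 of 78, beside 49.8%). No member passed the adjusted test of edgeR in either (0% of genes), nor of DESeq2 or limma voom. At an unadjusted p under 0.05 there was 1 member in CoCM against i.p. ABCB5+ (beside 4.09% of genes), Rpl22l1 with 0.36 ± 0.14, and there were 2 with DESeq2 (5.23%) and 4 with limma voom (11.1%). Between the routes there was none in edgeR or DESeq2 (beside 2.14% and 2.82% of genes) and 1 in limma voom (6.93%). Without animals 36 to 39 the medians were 0.21 and 0.07, with 3 members and none at an unadjusted p under 0.05 in edgeR, beside 8.48% and 1.13% of genes. Rpl22l1 then had 0.44 ± 0.14 in CoCM against i.p. ABCB5+ (edgeR adjusted p = 0.586). Rpl22l1 was at 28.6 to 47.0 CPM (median 42.04) in i.p. ABCB5+, so the CoCM range of 43.1 to 64.9 CPM overlapped it in part.

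Over the 4 groups together, no member passed the adjusted test of edgeR (0% of genes), DESeq2 or limma voom. At an unadjusted p under 0.05 there were 2, Rpl28l1 and Rpl22l1, both with an adjusted p of 0.817 in edgeR, beside 4.71% of genes, and there were 2 with DESeq2 (7.02%) and 7 with limma voom (17.7%). There were 3 in edgeR when animals 36 to 39 were left out, beside 6.23% of genes. With single animals left out the number ran from 1 to 11, the most without CoCM animal 39. The shares of all genes for these single fits are not given here. No member had values that did not overlap in any of the 6 contrasts. Over all genes, values did not overlap in either direction for 1.38% in CoCM against Ctrl, 0.047% in i.p. ABCB5+ against Ctrl and 0.11% in i.v. ABCB5+ against Ctrl. The share was 0.274% in CoCM against i.v. ABCB5+, 0.211% in CoCM against i.p. ABCB5+ and 0.0626% between the routes.

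**Figure D5:**
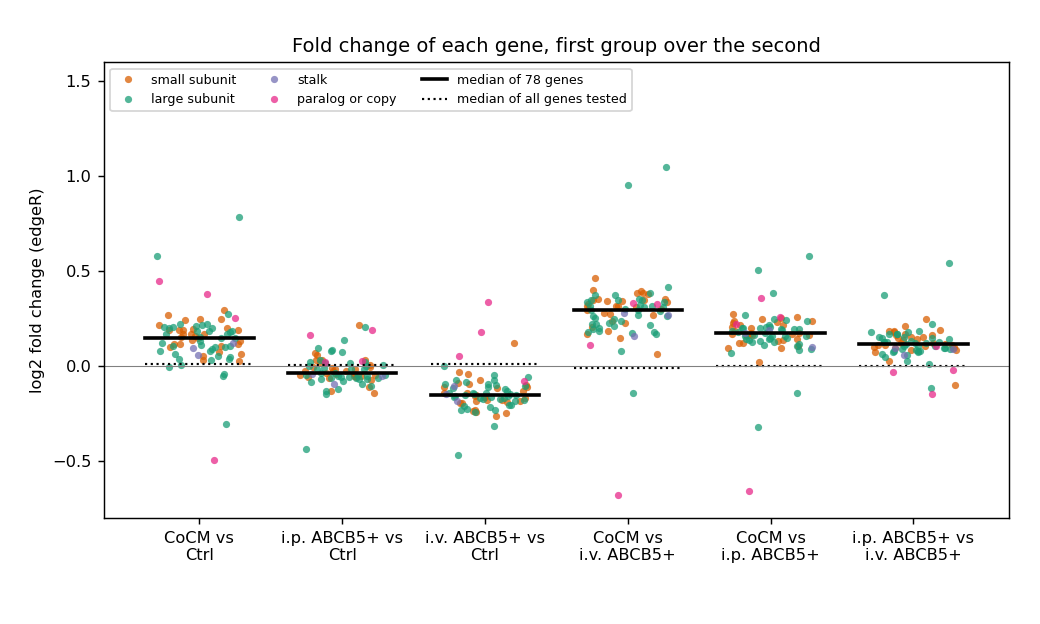
Log2 fold change (y axis, edgeR, first group over the second) of each of the 78 genes in the 6 contrasts, coloured by role, with the median of the 78 as a bold line and that of all genes tested as a dotted line. The members lie tightly around medians of 0.15, −0.04, −0.15, 0.30, 0.17 and 0.11, and the genes far from the others are mostly those with fractional counts.

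For genes that act with the ribosome, no member of any list passed the adjusted test of edgeR. Of 6 elongation factors, which deliver tRNA and move the ribosome along, the median was −0.02 in CoCM against Ctrl and −0.08 in i.v. ABCB5+ against Ctrl. Of 29 initiation factors the medians were 0.03 and 0.0019. In CoCM against Ctrl 4 initiation factors were higher and 1 lower at an unadjusted p under 0.05, beside 5.96% of genes in each direction, none with a passing adjusted p in edgeR. Eif5b, which joins the subunits, had 0.31 ± 0.11 and Eif3k 0.28 ± 0.10, and Eif3a, another subunit of the same initiation complex as Eif3k, had −0.24 ± 0.087. Of 6 other mRNAs known for a TOP tract (Tpt1 among them) the medians were 0.05 and −0.12. With animals 36 to 39 left out these medians were 0.06 and −0.04 for elongation factors, 0.04 and −0.03 for initiation factors and 0.10 and −0.05 for the TOP mRNAs. Eif5b then had 0.28 ± 0.098, Eif3k 0.31 ± 0.11 and Eif3a −0.25 ± 0.097, still with no passing adjusted p.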

How the data were processed

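RNA of whole kidney from 24 rats was sequenced on the BGISEQ-500. Per the submitters' processing notes, reads were trimmed with Trim Galore 0.6.4 and quantified with kallisto 0.4.6, and the rn6 build is named. The estimated counts and the TPM per gene (Entrez ID) were deposited by the authors for each animal, and TPM are scaled for transcript length. Of the IDs, 17179 of 17334 had a symbol in the RefSeq table. The study names DESeq2.

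Estimated counts were rounded, filtered with filterByExpr by group (12778 genes, all 78 members), scaled by TMM and fitted on all 24 animals with edgeR 4.0.16 (R 4.3.3), quasi-likelihood F-test, two-sided, with Benjamini-Hochberg adjustment over all genes and a threshold of 0.05. CPM are TMM-scaled. Values ± are SD or SE as stated, and SE belongs to the log2 fold change. Single members were also examined by an exact permutation test. Promoters are the first listed per gene.

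Members named were, per contrast, up to 5 per direction by unadjusted p under 0.05, those without overlap, the 3 highest and lowest by TPM, the 3 with largest and smallest SD, and fixed anchors with known roles. For related lists, up to 2 genes per direction were named. A list of cytosolic ribosomal genes outside the symbol rule is not reported here. The members and lists were chosen with earlier results of these data known.

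Alternatives were other size factors, scaling without the members, no filter, only the groups compared, DESeq2 1.42.0, limma 3.58.1 voom with quality weights, log2(TPM + 1) with limma, a surrogate variable (sva 3.50.0), removal of a length trend, and leaving out animals. On simulated data for CoCM against Ctrl (12778 genes, 200 of them changed 4-fold), edgeR recovered 99.5% with 4.33% false calls, DESeq2 99.5% with 14.2% and voom 99.5% with 5.69%. Recovery of changes smaller than 4-fold, such as the median differences of the members, was not tested. Each animal was a separate sample per the labels.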

Additional observations from a re-analysis of the deposited data

Results flagged for a closer look

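In 148 combinations of a measure and a group, the highest or lowest animal was compared with the others by its gap over the group's range (Dixon's criterion for 6 samples). Chance alone would mark about 7.4 of them, and 6 were marked. In i.p. ABCB5+ all 4 marks fell on animal 38: its share of counts was 2.634% (others 3.647% to 4.115%), its share of TPM 8.701% (others 12.52% to 13.9%), Rpl3 556.5 CPM (others 747.2 to 828.4) and Rplp0 960.5 CPM (others 1465 to 1592). In i.v. ABCB5+ animal 28 was high for Rps25, with 480.5 CPM (others 284.8 to 355.7), and for Rps29, with 512.8 CPM (others 330 to 385.5). The measures are not independent, since the members vary together.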

How the results depend on the processing

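No member passed an adjusted p of 0.05 under any alternative or with any animal left out, in any contrast. As a share of TPM in place of counts the group means were 13.33% (CoCM), 12.96% (Ctrl), 12.34% (i.p. ABCB5+) and 11.22% (i.v. ABCB5+). The median log2 fold change kept its sign under every alternative in CoCM against i.v. ABCB5+ (0.15 with the length trend removed), in CoCM against i.p. ABCB5+ and between the routes. In CoCM against Ctrl it was −0.03 with the length trend removed and 0.03 from TPM, in i.v. ABCB5+ against Ctrl 0.03 with a surrogate variable, and in i.p. ABCB5+ against Ctrl 0.03 with voom, 0.02 without animals 36 to 39 and 0.10 with a surrogate variable.

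Leaving out each animal gave medians of 0.06 (without CoCM 26) to 0.24 (without CoCM 39) for CoCM against Ctrl, −0.09 (without Ctrl 24) to 0.05 (without Ctrl 1) for i.p. ABCB5+ against Ctrl and −0.26 (without i.v. ABCB5+ 28) to −0.07 (without Ctrl 1) for i.v. ABCB5+ against Ctrl. They were 0.21 (without CoCM 26) to 0.40 (without i.v. ABCB5+ 28) for CoCM against i.v. ABCB5+, 0.08 to 0.27 (without CoCM 26 and 39) for CoCM against i.p. ABCB5+ and 0.04 to 0.22 (without i.v. ABCB5+ 36 and 28) between the routes.

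Members at an unadjusted p under 0.05 in CoCM against Ctrl numbered 39 with a surrogate variable (beside 16.6% of all genes), 12 without CoCM 39 (11.9%), 8 without Ctrl 1 (11.6%), 7 without CoCM 35 (10.8%), 4 without Ctrl 18 (13.6%) and 0 with the length trend removed (9.85%). In CoCM against i.v. ABCB5+ they numbered 13 with median-ratio size factors (7.19%), 8 with only the groups compared (5.37%) and 6 from TPM (4.27%). There they also numbered 5 without CoCM 27 or 34, 6 without i.v. ABCB5+ 43, 8 without 37, 10 without 42 or CoCM 40, 11 without i.v. ABCB5+ 33, 12 without Ctrl 22 or i.p. ABCB5+ 29, 30 or 32 and 15 without 41, beside 3.54% to 8.87% of all genes. In CoCM against i.p. ABCB5+ they reached 15 without CoCM 39 (7.6%). Over all genes, 1 was called in CoCM against Ctrl by edgeR, 78 by DESeq2 and 183 by voom. Leaving animals 36 to 39 out of the related gene lists was chosen after seeing the data and left 0 genes called. Members with whole counts only, also chosen after seeing the data, had medians of 0.14 (CoCM), −0.04 (i.p. ABCB5+) and −0.15 (i.v. ABCB5+) against Ctrl. The causes were not tested. No paired analysis was possible because no animal number occurs in more than 1 group.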

Other observations

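The mitochondrial ribosomal proteins were above Ctrl in CoCM for 70 of 70 genes, with a median log2 fold change of 0.25, beside 51.4% of all genes above 0. When animals 36 to 39 were left out, which held the 4 highest levels of this family, it was 0.19, again with 70 of 70 genes. None passed an adjusted p of 0.05 in edgeR with or without these animals. At an unadjusted p under 0.05 there were 13 genes higher and none lower, beside 5.96% of all genes higher, and 18 without animals 36 to 39, beside 7.22%. Mrpl57 had 0.52 ± 0.16 and Mrpl21 0.42 ± 0.13 (edgeR adjusted p = 0.301 each), and without these animals 0.41 ± 0.11 and 0.38 ± 0.10. The values for the 70 genes come from fits that kept the length trend. At the cytosolic members' lengths that trend ran from 0.002 (animal 35) to 0.25 (animal 39) in CoCM. In Ctrl it ran from −0.21 (animal 23) to 0.07 (animal 18), and its part in this result was not tested.

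In the groups given cells, which share the Ctrl animals, the medians of these genes were 0.19 for i.p. ABCB5+ (69 of 70 genes above 0) and 0.20 for i.v. ABCB5+ (70 of 70). The i.v. ABCB5+ value rested on animals 36 and 37: without animals 36 to 39 it was −0.02, with 21 of 70 genes above 0, and that of i.p. ABCB5+ was 0.10 with 67 of 70. With all animals 2 and 3 genes were higher at an unadjusted p under 0.05, beside 1.26% and 4.44% of all genes higher, and without these animals 1 and 0.

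Of 53 ribosome biogenesis genes, 7 were higher and 1 lower in CoCM than in Ctrl at an unadjusted p under 0.05, beside 5.96% of all genes in each direction, with none passing the adjusted test in edgeR and a median of 0.09. Without animals 36 to 39 there were 10 higher, beside 7.22% of all genes higher, and 1 lower, and the median was again 0.09. Dkc1, the pseudouridine synthase of ribosomal RNA, had 0.28 ± 0.090 and Bysl, an assembly factor of the small subunit, 0.24 ± 0.078. The lower gene was Ncl (nucleolin), with −0.20 ± 0.063. The 14 genes of mTOR and of TOP mRNA control had a median of −0.02 in CoCM against Ctrl, and −0.01 without animals 36 to 39. Rps6kb2, a kinase of Rps6, had the smallest p, with 54.1 ± 2.32 CPM (SD, n = 6) with CoCM against 41.8 ± 7.44 CPM in untreated rats, a log2 fold change of 0.37 ± 0.093 with an adjusted p of 0.202 in edgeR, and 0.35 ± 0.10 without animals 36 to 39. Rptor and Mtor had −0.30 ± 0.12 and −0.30 ± 0.13 in CoCM against i.v. ABCB5+ (edgeR adjusted p = 0.698 for both), and −0.33 ± 0.14 and −0.24 ± 0.14 without animals 36 to 39. In that contrast 8 of the 14 genes were above 0, beside 47.9% of all genes. The median of the 14 was 0.01, and −0.07 without animals 36 to 39.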
